A study of Homo sapiens with 28 samples.

Results

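Flag-tagged ZHX2 was mapped in T47D, a long-established cell line of luminal breast cancer, by chromatin immunoprecipitation and sequencing (ChIP-seq), and the binding regions of a mutant form that the labels call PA were set against those of the wild-type form (WT). Both groups were T47D cells that, per the labels, had been infected with lentivirus, selected in hygromycin or puromycin according to the vector, kept in hypoxia and fixed inside the hypoxia workstation, so the groups share hypoxia, tag, antibody and vector delivery. Each group had 2 samples and 1 deposited list of regions, 4 of the 28 samples and 2 of the 8 lists of the series. Another 4 samples titled Flag name no antibody and were kept apart. The oxygen level, the time in hypoxia, the residues changed in PA, the level of the tagged protein and whether the cells kept their own ZHX2 are not given in the sources used here. The members are all regions of the 2 lists on chromosomes 1 to 22 and X, 32134 regions in all, of 349107 peaks or regions in the 8 lists of the series. A region was called shared when it overlapped the other list by at least 1 bp, and PA-only or WT-only when it did not.

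ZHX2 is a nuclear protein with zinc fingers and homeodomains that binds DNA and regulates transcription, and in other cancers it has been described as a target of the oxygen-dependent VHL pathway. Flag is a short peptide tag, so an antibody to it recognises the introduced protein and not the cell's own. Whether other proteins were recovered together with the tagged one was not tested. CTCF, mapped in the same series, is a zinc finger protein found at chromatin loop anchors, and acetylated histone H3 lysine 27 (H3K27ac) marks active promoters and enhancers. Peaks of endogenous ZHX2, CTCF and H3K27ac were mapped in T47D in hypoxia and in normoxia, and these 6 lists give an independent description of what lies under the Flag regions.

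The mutant protein had fewer regions than the wild type, and nearly all of them were also WT regions. The PA list held 16019 regions covering 27.7 Mb and the WT list 31278 regions covering 36.1 Mb, so PA over WT was 0.512 in number and 0.768 in covered length. In both lists 15163 regions were shared, which is 94.7% of the PA list (interval 94.3 to 94.99%) and 48.5% of the WT list (47.9 to 49.0%). The PA-only class held 856 regions (2.66% of the regions of either list), the WT-only class 16115 (50.1%) and the shared class 15163 (47.2%). There were thus 18.8 WT-only regions for each PA-only region. All intervals are 95% Wilson intervals over regions and cover counting error only. With 1 list a group no difference could be set against the spread between the 2 samples, read depth is not given, and no test was run.

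All 15163 overlapping pairs had the same start and the same end in both lists, 0 pairs differed, and no region of a list overlapped or touched another of that list. The 2 lists therefore read as subsets of 1 common set of intervals, and the width of a shared region is 1 value, not a PA value and a WT value. The sources used here do not say how that set was made. Close to the limit of the rule, 5 PA-only regions had a WT region within 10 bp and 30 within 50 bp, while 27 WT-only regions had a PA region within 10 bp and 153 within 50 bp. The shortest gap between neighbouring regions was 1 bp.

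Width separated the shared class from the other two more than it separated PA-only from WT-only. PA-only regions had a median width of 401 bp, WT-only regions of 436 bp and shared regions of 1575 bp. Regions of exactly 200 bp, the shortest in either list, numbered 42 in the PA-only class, 743 in the WT-only class and 1 in the shared class. Of the WT regions of 200 to 300 bp, 0.908% were also in the PA list, of those of 501 to 800 bp 30.9%, of those of 1201 to 2000 bp 85.4%, and of those over 2000 bp 98.2% (5107 of 5203). The PA list over the WT list was 0.0695 in number at 200 to 300 bp and 0.982 above 2000 bp. The WT regions without a PA region were thus mostly the narrow ones.

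**Figure D1:**
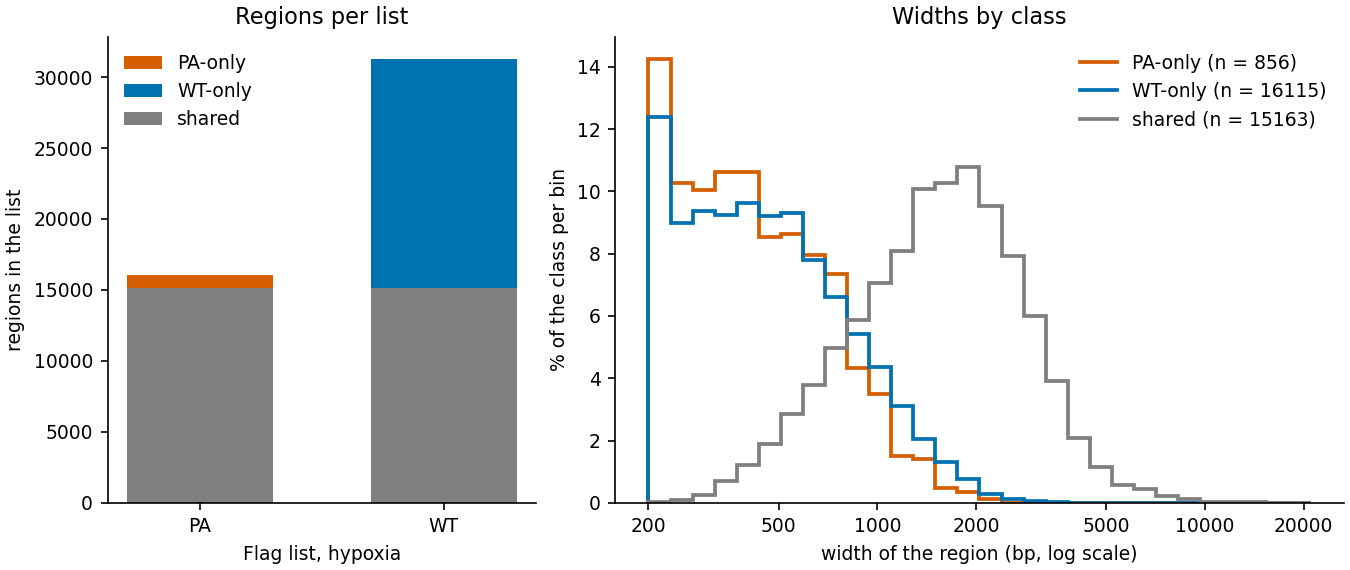
Left, number of regions in the PA and WT Flag lists, split into PA-only (orange), WT-only (blue) and shared (grey). Right, distribution of region width in bp (log scale) for the 3 classes, as a percent of the class in each bin; the PA-only and WT-only classes peak at the 200 bp minimum with medians of 401 and 436 bp, and the shared class has a median of 1575 bp.

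To show what these regions contain, promoters lying whole inside a Flag region are given for genes chosen by region width: a pair of PA-only promoters, 3 WT-only promoters of hypoxia or luminal genes and a pair of shared ones. They are RefSeq sequences of GRCh38.p14, 300 bases each, from 250 bases before to 50 bases after the annotated start, read 5′ to 3′ on the gene's strand. Capitals mark matches, on either strand, to ACGTG (the core of the hypoxia response element), CACGTG (an E-box, which holds ACGTG on both strands), GGGCGG (GC box), CCACNAGG (part of the CTCF core), TGANTCA (AP-1), TGTTTAC (forkhead) or CCGGAAG (ETS).
HOXD8: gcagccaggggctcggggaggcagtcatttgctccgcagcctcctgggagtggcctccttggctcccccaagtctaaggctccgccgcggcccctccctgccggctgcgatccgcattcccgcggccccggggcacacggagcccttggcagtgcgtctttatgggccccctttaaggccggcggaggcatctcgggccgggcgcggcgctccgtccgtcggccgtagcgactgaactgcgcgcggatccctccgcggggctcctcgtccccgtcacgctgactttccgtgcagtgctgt
ESRRB: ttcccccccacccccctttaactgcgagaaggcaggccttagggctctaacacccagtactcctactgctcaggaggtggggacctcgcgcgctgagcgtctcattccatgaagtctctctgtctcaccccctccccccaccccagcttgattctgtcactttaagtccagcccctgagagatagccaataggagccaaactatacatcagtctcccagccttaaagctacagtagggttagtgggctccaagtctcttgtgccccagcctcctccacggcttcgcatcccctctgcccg
KRT8: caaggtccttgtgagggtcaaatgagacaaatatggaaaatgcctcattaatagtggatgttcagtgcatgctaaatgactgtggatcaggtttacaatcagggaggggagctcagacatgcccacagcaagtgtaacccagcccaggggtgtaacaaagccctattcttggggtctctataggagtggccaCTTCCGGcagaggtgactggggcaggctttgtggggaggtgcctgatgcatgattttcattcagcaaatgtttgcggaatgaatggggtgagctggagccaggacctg
CA9: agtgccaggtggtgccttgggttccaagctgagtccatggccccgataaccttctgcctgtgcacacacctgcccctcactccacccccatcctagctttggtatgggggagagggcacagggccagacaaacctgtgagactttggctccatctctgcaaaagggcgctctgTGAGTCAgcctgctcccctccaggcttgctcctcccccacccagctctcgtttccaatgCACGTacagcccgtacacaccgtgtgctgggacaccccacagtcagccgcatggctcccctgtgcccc
KDM4B: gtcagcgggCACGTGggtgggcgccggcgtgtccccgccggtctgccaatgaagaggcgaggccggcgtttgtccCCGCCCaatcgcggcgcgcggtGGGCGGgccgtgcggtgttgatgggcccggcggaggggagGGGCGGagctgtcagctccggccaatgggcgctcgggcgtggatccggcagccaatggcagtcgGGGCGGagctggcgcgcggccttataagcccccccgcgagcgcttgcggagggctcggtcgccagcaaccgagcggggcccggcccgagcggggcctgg
GAPDH: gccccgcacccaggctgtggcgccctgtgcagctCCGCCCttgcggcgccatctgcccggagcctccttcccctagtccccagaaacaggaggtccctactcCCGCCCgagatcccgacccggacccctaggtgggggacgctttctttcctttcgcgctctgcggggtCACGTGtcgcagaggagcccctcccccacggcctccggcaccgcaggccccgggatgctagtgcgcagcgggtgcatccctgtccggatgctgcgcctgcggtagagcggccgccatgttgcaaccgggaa
FOXA1: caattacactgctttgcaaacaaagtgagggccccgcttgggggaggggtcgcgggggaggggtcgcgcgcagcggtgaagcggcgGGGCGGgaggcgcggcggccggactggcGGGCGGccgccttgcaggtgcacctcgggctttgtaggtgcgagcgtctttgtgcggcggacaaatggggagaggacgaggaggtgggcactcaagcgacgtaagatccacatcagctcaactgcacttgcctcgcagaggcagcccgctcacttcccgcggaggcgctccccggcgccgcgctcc
HOXD8, a homeobox gene (chr2:176129455-176129754, + strand), and ESRRB, an orphan nuclear receptor related to the oestrogen receptor (chr14:76375887-76376186, + strand), are PA-only and hold 0 matches. KRT8, a luminal keratin (chr12:52926420-52926719, - strand, an alternative upstream start), is WT-only at this window with 1 ETS match, although a shared region of 13732 bp lies elsewhere in the gene. CA9, a carbonic anhydrase used as a marker of hypoxia (chr9:35673678-35673977, + strand), is WT-only and holds ACGTG once, with its first base 18 bases before the start, and AP-1 once. KDM4B, a histone demethylase induced by hypoxia (chr19:4968863-4969162, + strand), is WT-only and holds 1 E-box and 4 GC boxes. GAPDH, a glycolytic enzyme (chr12:6535014-6535313, + strand), and FOXA1, a luminal pioneer factor (chr14:37595200-37595499, - strand), are shared, with an E-box and 2 GC boxes in GAPDH and 2 GC boxes in FOXA1. A match is a run of letters and not a known site.

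Promoters inside the 3 classes had similar base composition. Of 34789 promoter windows in the RefSeq table, which has none on chromosome 8, 37 lay whole inside a PA-only region, 1159 inside a WT-only region and 11334 inside a shared region. Median GC content was 67.7%, 67.0% and 66.0% in that order, against 58.7% over all windows. ACGTG was present in 24.3% of the PA-only windows (interval 13.4 to 40.1%), 24.1% of the WT-only windows (21.7 to 26.6%) and 29.0% of the shared windows (28.1 to 29.8%), and in 21.4% of all windows. The GC box was present in 70.3%, 75.5% and 73.1%, against 44.9% of all. The ETS motif was present in 8.11% of PA-only (2.80 to 21.3%), 16.2% of WT-only (14.2 to 18.5%) and 21.2% of shared windows (20.4 to 21.9%), against 10.2% of all. The 37 PA-only windows leave wide intervals that include the WT-only share for all 7 motifs.

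Over all widths, shared regions lay at gene ends more often than PA-only or WT-only regions. A gene end here is 1 kb on either side of an annotated end of 1 of 19821 protein-coding genes, since the gene table gives no strand. Of the PA-only regions 26.2% lay at a gene end (interval 23.3 to 29.2%), of the WT-only regions 18.8% (18.2 to 19.4%) and of the shared regions 56.5% (55.7 to 57.2%). Outside genes and their ends lay 31.7% of PA-only, 37.7% of WT-only and 20.2% of shared regions. The median distance from a region's midpoint to the nearest start in the promoter table was 7827 bp for PA-only, 11478 bp for WT-only and 780 bp for shared regions. Put the other way, 73.9% of the WT regions at gene ends were also in the PA list, but 33.6% of those inside a gene away from its ends and 33.5% of those outside genes. Part of this goes with width: among WT regions of 501 to 800 bp the shares were 33.2% at gene ends and 30.3% off them, and among those of 1201 to 2000 bp 89.1% and 79.6%. At equal width PA-only regions lay at gene ends at shares above those of shared regions in the narrower bands, with 24.2% of PA-only, 13.7% of WT-only and 14.4% of shared regions at 301 to 500 bp and 29.3%, 19.0% and 21.1% at 501 to 800 bp. At 801 to 1200 bp the shares were 41.0% (interval 30.8 to 52.1%), 31.02% and 36.8%, where the PA-only interval includes the shared value.

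Over all widths, endogenous ZHX2 was found under shared regions more often than under either of the other classes. A hypoxia ZHX2 peak overlapped 26.1% of PA-only (223 of 856, interval 23.2 to 29.1%), 21.8% of WT-only (3511 of 16115, 21.2 to 22.4%) and 69.5% of shared regions (68.8 to 70.2%). Of the WT regions with a hypoxia ZHX2 peak, 75.01% (74.3 to 75.7%) were also in the PA list, against 26.8% (26.2 to 27.5%) of those without one. Wider regions meet more peaks, and within a band of widths the gap was smaller: at 501 to 800 bp 37.6% against 28.2%, at 801 to 1200 bp 64.1% against 52.8%, and at 1201 to 2000 bp 89.0% against 76.3%. When each region was cut to 200 bp around its midpoint, the share with a hypoxia ZHX2 peak was 20.3% for PA-only, 17.3% for WT-only and 49.6% for shared.

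Seen from the 32343 endogenous hypoxia ZHX2 peaks, 44.2% met a PA region and 54.2% a WT region, and 45.2% met neither. Ranked by the authors' −log10 q within that list, the lowest 20% of peaks met a PA region in 24.5% and a WT region in 32.4% of cases, and the highest 20% in 73.6% and 82.1%. PA over WT was 0.755 in the lowest 20% and 0.896 in the highest. The ratio thus rose with the rank of the endogenous peak. The share of peaks meeting a WT-only region did not move steadily with it. It rose from 8.59% in the lowest 20% to 13.9% in the next to highest 20% and was 10.5% in the highest. For hypoxia H3K27ac peaks the same ratio was 0.397 in the lowest 20% and 0.864 in the highest. For hypoxia CTCF peaks it ran the other way, with 0.843 in the lowest 20% and 0.655 in the highest.

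H3K27ac and CTCF peaks also lay under shared regions more often over all widths. Among narrow regions of equal width, shared regions were not the highest class for either. Hypoxia H3K27ac lay under 54.3% of PA-only (interval 51.0 to 57.6%), 59.4% of WT-only (58.6 to 60.1%) and 86.1% of shared regions (85.5 to 86.6%), and hypoxia CTCF under 25.6% (22.8 to 28.6%), 24.6% (23.9 to 25.2%) and 61.9% (61.1 to 62.6%). At 301 to 500 bp hypoxia H3K27ac lay under 53.7% of PA-only, 54.7% of WT-only and 48.5% of shared regions, at 501 to 800 bp under 59.02%, 63.04% and 62.1%, and at 1201 to 2000 bp under 36% (9 of 25), 84.6% and 91.7%. Hypoxia CTCF at 301 to 500 bp lay under 25.3%, 19.1% and 21.9% in the same order. At 501 to 800 bp it lay under 31.2%, 26.5% and 29.0%, and at 1201 to 2000 bp under 36% (9 of 25), 53.4% and 66.3%. Of the WT regions where ZHX2, CTCF and H3K27ac all had a hypoxia peak, 82.7% were also in the PA list, and of those with none of these peaks 22.5% were. With CTCF but no H3K27ac the share was 28.3%, and with H3K27ac but no CTCF 38.3%. Where hypoxia CTCF lay under a region, the peak with the highest of the authors' fold enrichments over background was taken. Its median fold was 17.7 for PA-only, 32.9 for WT-only and 12.7 for shared regions, at median percentiles of 48.7, 59.5 and 42.04 of the CTCF list. Wide regions can draw the highest peak from more peaks, so the classes are not compared alike. No peak of any of the 6 lists lay under 32.1% of PA-only, 31.3% of WT-only and 9.56% of shared regions.

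**Figure D2:**
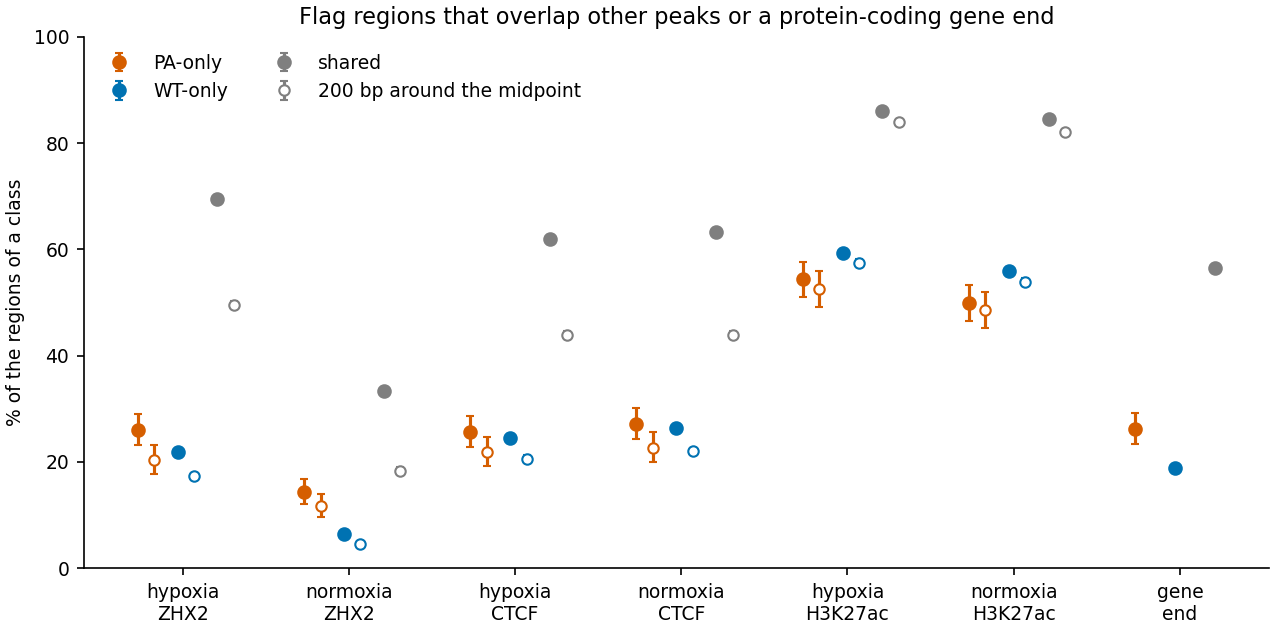
Percent of PA-only (orange), WT-only (blue) and shared (grey) Flag regions that overlap a peak of 6 other lists or a protein-coding gene end; filled points use the whole region, open points 200 bp around its midpoint, and bars are 95% Wilson intervals. Shared regions, which are wider, are highest in every column, and the PA-only interval lies above the WT-only interval for hypoxia ZHX2, normoxia ZHX2 and gene ends at whole width.

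Among the 6 lists, PA-only and WT-only regions differed by the largest ratio at normoxia ZHX2 peaks. Normoxia ZHX2 peaks overlapped 14.3% of PA-only regions (122 of 856, interval 12.1 to 16.8%), 6.48% of WT-only regions (1045 of 16115, 6.11 to 6.88%) and 33.3% of shared regions. The order of the first 2 classes was the same in each of 5 width bands: 9.77% against 2.91% at 200 to 300 bp, 12.1% against 4.13% at 301 to 500 bp, 15.6% against 7.43% at 501 to 800 bp, 28.2% against 12.01% at 801 to 1200 bp and 32% against 19.0% at 1201 to 2000 bp, although the PA-only interval of the last band, 17.2 to 51.6%, includes the WT-only share. In the same bands the share of shared regions was 7.5%, 8.35%, 9.37%, 18.5% and 31.2%, below the PA-only share in each. The PA-only intervals at 200 to 300 bp (6.76 to 13.9%) and at 1201 to 2000 bp include the shared value. A peak in the normoxia ZHX2 list and none in the hypoxia list lay under 4.44% of PA-only regions (38 of 856), 1.08% of WT-only regions (174) and 1.04% of shared regions (157). By the authors' fold, the highest normoxia peak under each overlapped region stood at a median percentile of its own list of 77.5 for PA-only, 55.0 for WT-only and 61.1 for shared regions. The 38 and 122 regions are few, several lie in the same gene, and both Flag groups were kept in hypoxia, so these values describe where the regions lie and not a response to oxygen.

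**Figure D3:**
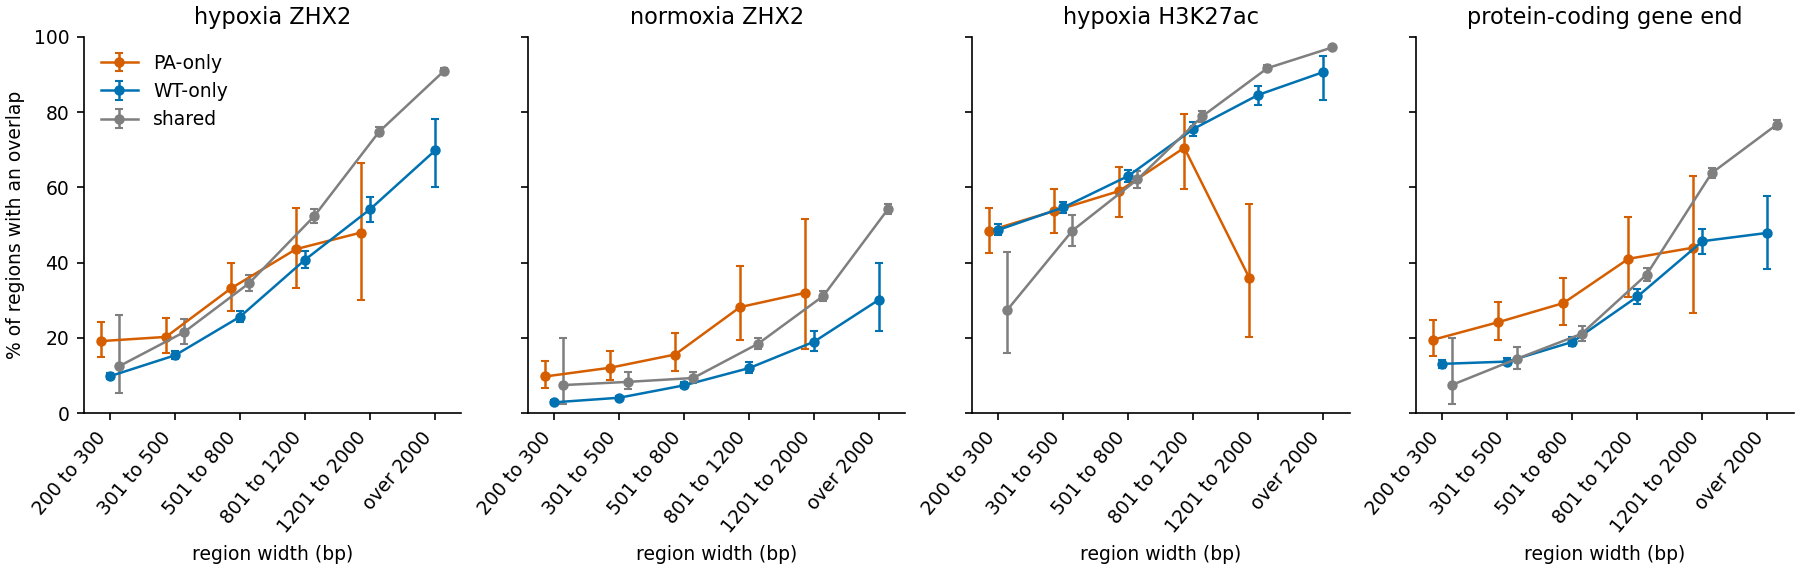
Percent of regions overlapping hypoxia ZHX2, normoxia ZHX2 and hypoxia H3K27ac peaks and protein-coding gene ends, by region width in bp, for PA-only (orange), WT-only (blue) and shared (grey) regions; bars are 95% Wilson intervals and bands with under 20 regions of a class are left out. PA-only lies above WT-only for normoxia ZHX2 at every width shown, and for H3K27ac the PA-only intervals include the WT-only share up to 1200 bp.

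Across chromosomes the PA list over the WT list lay between 0.451 on chromosome 21 and 0.586 on X. Chromosomes 20 (0.459) and 10 (0.469) were next to the lowest. PA regions were fewer on every one of the 23 chromosomes, and no chromosome carried the difference alone.

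At the level of genes, most genes with a WT region also had a PA region. Of 19821 protein-coding genes 9943 had a PA region at an end (50.2%) and 11590 a WT region (58.5%). Both lists marked 9848 genes (49.7%), PA alone 95 (0.479%) and WT alone 1742 (8.79%), so 0.955% of the genes with a PA region had no WT region and 15% of those with a WT region had no PA region. A PA-only region lay at 247 genes (1.25%), a WT-only region at 3006 (15.2%) and a shared region at 9802 (49.5%), since many genes with a WT-only region also had a shared one. For comparison, 12931 genes had a hypoxia H3K27ac peak at an end (65.2%). Below, the gene groups are described by their counts beside these shares of all genes, with no test of a list.

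**Figure D4:**
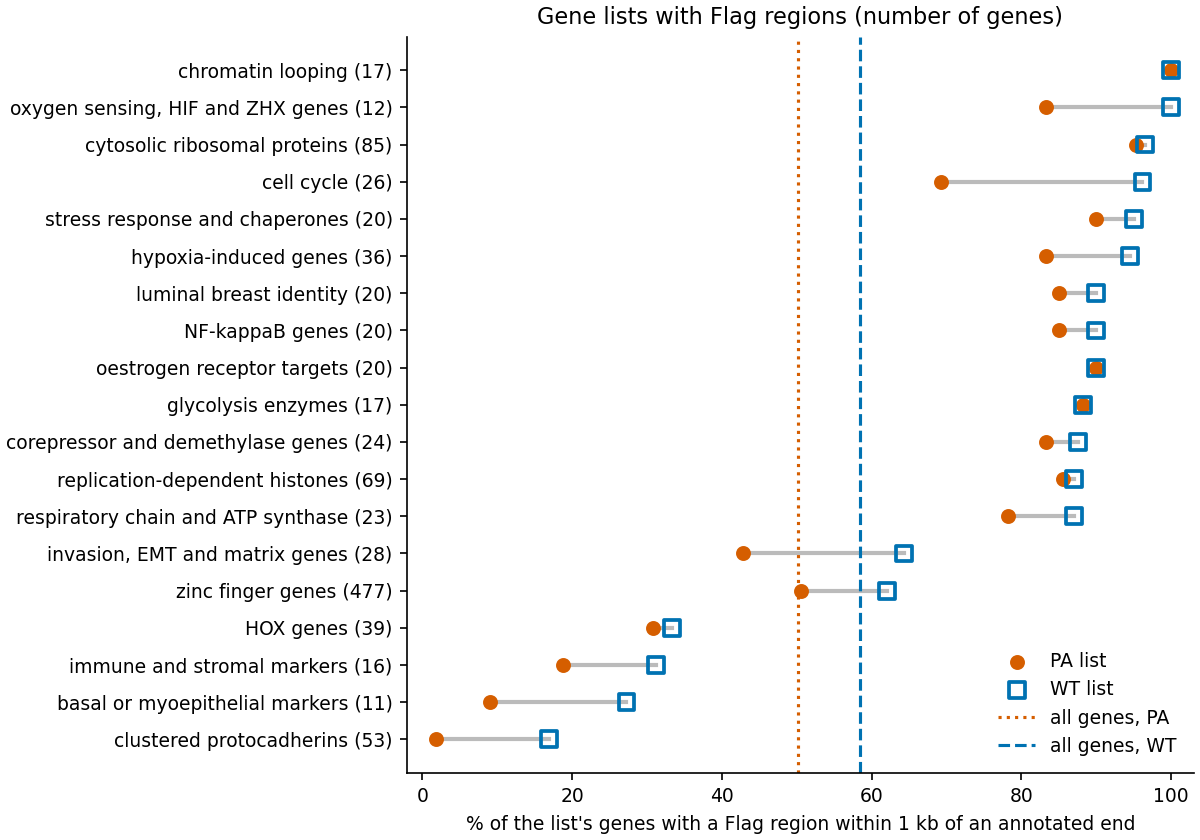
Percent of the genes of 19 lists with a Flag region within 1 kb of an annotated end, in the PA list (orange points) and the WT list (blue squares), with the same share of all protein-coding genes as a dotted line (PA, 50.2%) and a dashed line (WT, 58.5%). The grey bar between the points is longest for the cell cycle list and for the invasion, EMT and matrix list.

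Genes induced by hypoxia were marked by both proteins. Of 36 such genes 30 had a PA region and 34 a WT region (83.3% and 94.4%, against 50.2% and 58.5% of all genes). A PA region alone lay at 0 and a WT region alone at 4, or 11.8% of the WT holders. That is below the 15% over all genes with a WT region. These 4 were CA9, a single WT-only region of 933 bp (chr9:35673321-35674253), BNIP3, a mitophagy receptor, with 870 bp, SLC2A3, a glucose transporter, with 305 bp, and KDM4B with up to 2162 bp. Inside KDM4B, away from its ends, lay 2 shared regions of 2908 and 581 bp, so the gene as a whole was not without PA regions. The 2 genes of the list without a region were PFKFB4, a regulator of glycolysis, and KDM3A, a histone demethylase. PGK1, a glycolytic kinase, had a shared region of 1150 bp (chrX:78103296-78104445) at which the hypoxia ZHX2 peak had a fold of 42.5 and the normoxia peak 2.99, with a WT-only region of 476 bp beside it. VEGFA, the angiogenic growth factor, had all 3 classes within and around the gene: a PA-only region of 641 bp, 5 WT-only regions and 2 shared ones. Of 17 glycolysis enzymes 15 had a region in each list and the same 15 in both, with shared regions of 8553 bp at GAPDH and 8497 bp at ALDOA, an aldolase.

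SLC2A1, the main glucose transporter induced by hypoxia, showed how the lists differ inside a gene. It held 1 PA-only region of 299 bp, 10 WT-only regions of 237 to 1739 bp and 3 shared regions. The shared regions lay at and near the annotated ends, and all 10 WT-only regions lay between them. Among those 10, 1 had a hypoxia ZHX2 peak and 1 a hypoxia CTCF peak, while 9 had hypoxia H3K27ac. NDRG1, another hypoxia-induced gene, likewise held 0 PA-only, 10 WT-only and 3 shared regions.

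Among genes of oxygen sensing and the ZHX family, 10 of 12 had a PA region and all 12 a WT region, against 50.2% and 58.5% of all genes. WT alone marked 2, EPAS1 and HIF3A. That is 16.7% of the WT holders, near the 15% over all genes with a WT region. EPAS1, which encodes HIF-2α, had 2 WT-only regions of 1099 bp and 397 bp at its lower end (chr2:46296857-46297955 and chr2:46298371-46298767) and no PA region anywhere in the gene. The first lay on a hypoxia ZHX2 peak (fold 4.16), and both lay on CTCF and H3K27ac peaks in hypoxia and in normoxia. HIF3A had a single WT-only region of 200 bp with no peak of the 6 other lists. VHL, the ubiquitin ligase subunit that recognises hydroxylated HIF, had 1 shared region of 2733 bp. ARNT, the shared HIF partner, the prolyl hydroxylase genes EGLN1, EGLN2 and EGLN3, and the asparaginyl hydroxylase gene HIF1AN also had shared regions, with a WT-only region of 250 bp at EGLN3 beside them.

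HIF1A, which encodes HIF-1α, had more PA-only regions inside it than any other protein-coding gene. A shared region of 2557 bp lay at its lower end, and 5 PA-only regions of 200 to 390 bp lay between chr14:61727451-61727670 and chr14:61746933-61747138, with 0 WT-only regions. All 5 lay on endogenous ZHX2 peaks, with the authors' folds of 56.5 to 146 in hypoxia and 131 to 376 in normoxia, and 0 lay on a CTCF peak. These folds are not typical of the class. Where a ZHX2 peak lay under a PA-only region, the median fold of the highest such peak was 3.77 in hypoxia and 4.19 in normoxia. How the 5 regions lie relative to exons, and why the folds are so high, was not tested. Other genes with several PA-only regions were P4HTM, a transmembrane prolyl hydroxylase, with 4, and PKM, a pyruvate kinase, PLXNB2, a semaphorin receptor, POU3F3, a POU-domain factor, and TENM3, a teneurin, with 3 each. None of the 4 in P4HTM and none of the 3 in PKM had an endogenous ZHX2 peak. Inside a gene, 539 genes held at least 1 PA-only region and 34 at least 2, while 5624 held a WT-only region and 1983 at least 2.

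The gene for ZHX2 itself held 2 shared and 2 WT-only regions. The shared region at its lower end, 7090 bp wide (chr8:122780023-122787112), lay on a hypoxia ZHX2 peak of fold 28.6 and a normoxia peak of fold 10.2. The other shared region, 2739 bp wide inside the gene (chr8:122951395-122954133), had no ZHX2 or CTCF peak in either condition. It had no hypoxia H3K27ac peak and a normoxia H3K27ac peak of fold 4.74. The cells also carried an introduced ZHX2 sequence, and whether reads from it contribute to regions in this gene was not tested.

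**Figure D5:**
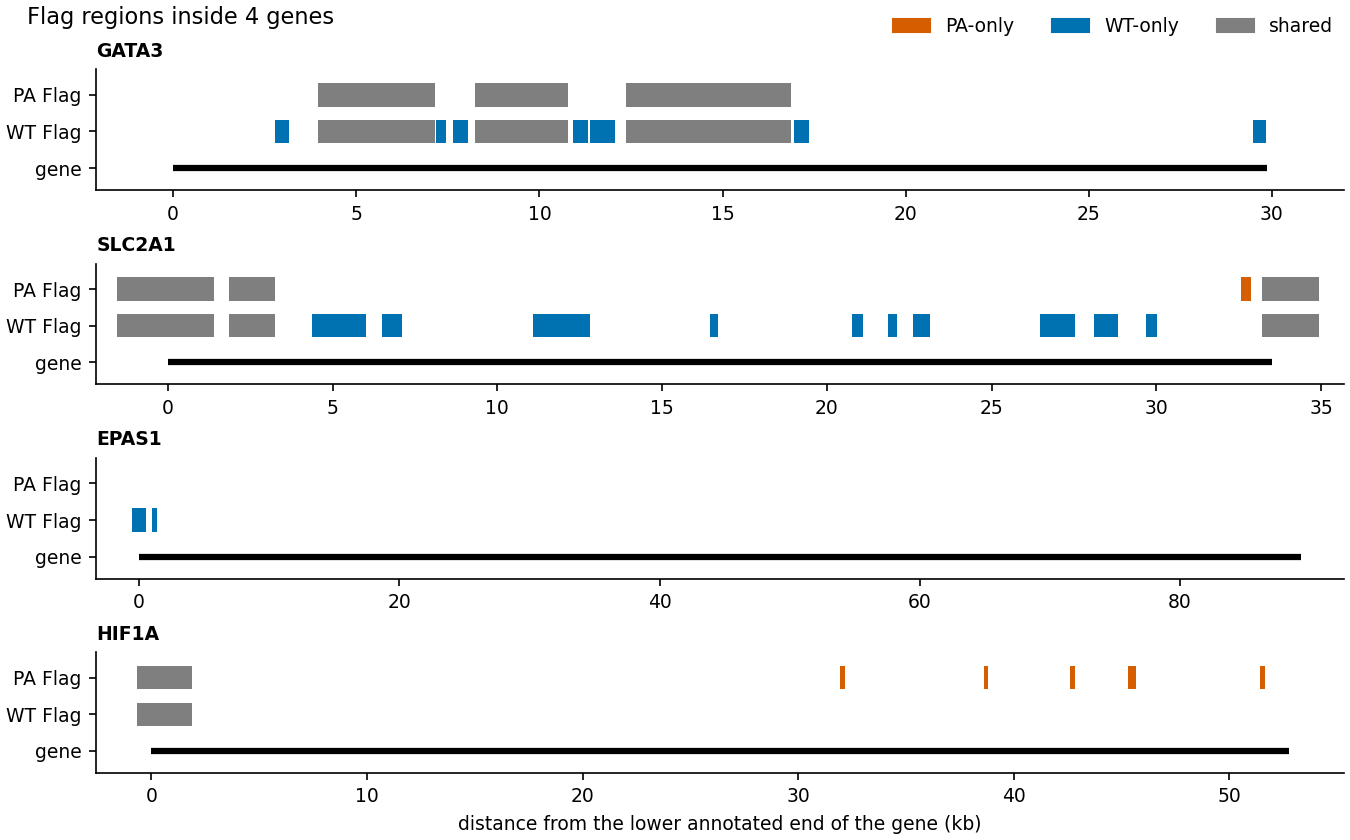
PA Flag (upper row) and WT Flag (middle row) regions in GATA3, SLC2A1, EPAS1 and HIF1A, with the annotated gene as a black bar, against distance in kb from the gene's lower annotated end; PA-only regions are orange, WT-only blue and shared grey. GATA3 and SLC2A1 have WT-only regions between shared ones, EPAS1 has 2 WT-only regions and no PA region, and HIF1A has 5 narrow PA-only regions; the 4 genes were chosen after their values were seen.

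Most luminal identity genes had a region in both lists. Of 20 genes 17 had a PA region and 18 a WT region at an end, against 1 and 3 of 11 basal or myoepithelial markers and 3 and 5 of 16 immune and stromal markers (PA and WT, in that order). Over all genes the shares were 50.2% and 58.5%. Of the 18 luminal genes with a WT region 5.56% had no PA region, against 15% of all genes with one, a difference that rests on few genes. FOXA1 (7422 bp), TFAP2C (7362 bp), an AP-2 factor, and the keratin genes KRT8 (13732 bp), KRT18 (8928 bp) and KRT19 (9189 bp) had wide shared regions. GATA3, a luminal transcription factor, was the luminal gene with a WT region alone at its ends, a region of 356 bp, but inside the gene it held 3 shared regions of 2538 to 4528 bp and 7 WT-only regions, that one included. At chr10:8049290-8062691 the gene carried a chain of 8 regions, 3 shared and 5 WT-only, with gaps of at most 500 bp. ESR1, the oestrogen receptor, had no region at its ends and 1 PA-only, 9 WT-only and 6 shared regions inside. Among 20 oestrogen receptor targets the same 18 had both; CCND1, cyclin D1, had shared regions of 6680 and 3302 bp, a PA-only region of 670 bp and a WT-only region of 216 bp.

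Cell cycle genes and invasion genes had the largest number of members marked by WT alone outside the zinc finger and protocadherin families. By share of the WT holders, smaller groups stood higher, on few genes. WT alone marked 3 of 4 olfactory receptors with a WT region, 2 of 3 basal markers and 2 of 5 immune and stromal markers. Of 26 cell cycle genes 18 had a PA region and 25 a WT region, against 50.2% and 58.5% of all genes. The WT-alone genes numbered 7, 28% of the WT holders against 15% of all genes: CCNE1, cyclin E1 (633 bp), the kinase gene CDK6 (842 bp), the mitotic kinase gene AURKB (637 bp), the proliferation marker MKI67 (618 bp), and CDKN2A, CDC25A and E2F1. Their regions were narrow, at most 842 bp. Of 28 invasion, epithelial-mesenchymal transition (EMT) and matrix genes 12 had a PA region and 18 a WT region. These are 42.9% and 64.3%, near the 50.2% and 58.5% of all genes. WT alone marked 6, or 33.3% of the WT holders against 15% over all genes with a WT region. They were FN1, fibronectin (1285 bp), the EMT factor SNAI1 (1243 bp), the integrins ITGA5 (658 bp) and ITGA6 (457 bp), CD44 (211 bp) and TGFBR1 (200 bp). In contrast all 17 chromatin looping genes, such as CTCF, RAD21 and NIPBL, had a region in both lists, against 49.7% of all genes. A WT-only region lay at the ends of 0 of them, against 15.2% of all genes. Inside CTCF lay 2 PA-only regions of 764 and 231 bp, without a peak of the 6 other lists.

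Housekeeping families were held in both lists. Cytosolic ribosomal protein genes had a PA region at 81 of 85 and a WT region at 82, and 10 of the 85 (11.8%) had a PA-only region and 19 a WT-only region, against 1.25% and 15.2% of all genes. PA-only regions also lay at 3 of 20 stress response genes and chaperones (15%), 3 of 36 hypoxia-induced genes (8.33%) and 1 of 17 glycolysis enzymes (5.88%). They lay at 1 of 69 replication-dependent histone genes (1.45%). Lists with 0 included the oxygen sensing, NF-kappaB, luminal, chromatin looping and clustered protocadherin genes. These counts are small. RPS4X had a PA-only region of 267 bp and no WT region, and RPS10 and RPL39L had a WT region alone. Of 23 genes of the respiratory chain and ATP synthase 18 had a PA and 20 a WT region. ATP5F1A, the α subunit of ATP synthase, was marked by PA alone (814 bp), and SDHA (2369 bp), NDUFB8 (1035 bp) and ATP5PO (715 bp) by WT alone. Replication-dependent histone genes had 59 and 60 of 69, stress response genes and chaperones 18 and 19 of 20, NF-kappaB genes 17 and 18 of 20 and corepressor and demethylase genes 20 and 21 of 24. The shares of all genes were 50.2% (PA) and 58.5% (WT). Neighbouring histone genes can hold the same region and are not independent.

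Clustered protocadherins and olfactory receptors had few regions, and those were mostly WT alone. Of 53 clustered protocadherins, neuronal adhesion genes, 1 had a PA region and 9 a WT region (1.89% and 17.0%, against 50.2% and 58.5% of all genes). The widest regions by WT alone, 713 to 796 bp at PCDHB8, PCDHA11, PCDHB6 and PCDHA5, all lay on CTCF peaks with folds of 96.3 to 159 in hypoxia. Of 387 olfactory receptors, genes of the nasal epithelium, 1 had a PA and 4 a WT region (0.258% and 1.03%). WT alone marked 88.9% of the protocadherin and 75% of the olfactory WT holders, against 15% over all genes with a WT region. Of 477 zinc finger genes 241 had a PA and 296 a WT region, 50.5% and 62.1%, near the 50.2% and 58.5% of all genes. PA alone marked 2 (ZNF100 and ZNF197) and WT alone 57, 19.3% of the WT holders against 15% over all genes. HOX genes had 12 and 13 of 39 (30.8% and 33.3%), below the shares of all genes. HOXD8 was marked by PA alone, with a region of 1773 bp (chr2:176129053-176130825) on a normoxia ZHX2 peak of fold 4.73 and on no hypoxia ZHX2, CTCF or H3K27ac peak.

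At gene ends, wide PA-only regions were those of GAREM1 (1793 bp), HOXD8, CLDN23, a claudin (1616 bp), and FGF9, a growth factor (1506 bp). HOXD8 and FGF9 had no CTCF or H3K27ac peak under the region in either condition. Wide WT-only regions were those of ENO2, the neuronal enolase, with its neighbour ATN1 (4135 bp, chr12:6922841-6926975), GEN1 with SMC6 (3307 bp), NFATC4 (3170 bp) and SDC1, a syndecan (3099 bp), followed by EDIL3, C16orf74, DNAJC17 with GCHFR, MED15 and SNX25 at 2586 to 2781 bp. Of these 9 regions 7 lay on a hypoxia ZHX2 peak, at folds of 3.14 to 7.10, and 8 on hypoxia H3K27ac. The widest shared regions were those of SLC7A5, an amino acid transporter (20511 bp, chr16:87849720-87870230), PARD6B, a polarity protein (16626 bp), VMP1 (14012 bp), KRT8, and MED29 with PLEKHG2 and ZFP36 (12462 bp). HSPB1, ZMYND8, ATP5F1D with MIDN, RHOU and AJM1 with PHPT1 and RABL6 followed at 10422 to 11728 bp.

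The genes with the most WT-only regions inside them also held shared ones. GSE1, a gene linked to a corepressor complex, held 1 PA-only, 30 WT-only and 25 shared regions, IGF1R, a growth factor receptor, 1, 17 and 13, DSCAM, an adhesion molecule, 0, 16 and 5, GNG7, a G protein subunit, 0, 15 and 3, MED13L, a Mediator subunit, 1, 15 and 1, and ZNRF2, a ubiquitin ligase, 0, 15 and 3, in the same order of classes. Over all regions the shares were 2.66%, 50.1% and 47.2%, and GSE1 and IGF1R had a mix near these. These genes differ in length, between 83.1 kb for ZNRF2 and 836 kb for DSCAM, and longer genes have more room. Over the genome 15.5% of PA-only and 15.4% of WT-only regions had a shared region within 500 bp. With gaps of at most 500 bp, 8901 regions formed 3955 chains, of which 145 held shared and PA-only regions and 2294 held shared and WT-only regions.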

How the data were processed

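Flag ChIP-seq of T47D cells in hypoxia was examined for PA and WT ZHX2, with 2 samples and 1 deposited list a group. The submitters' processing notes name the tools cutadapt, Bowtie2 and MACS2, without versions, and GRCh38 (hg38) as the genome. The Flag lists hold positions alone, as deposited by the authors. For endogenous ZHX2, CTCF and H3K27ac the authors deposited a fold enrichment (a ratio over background), a score and −log10 p and q per peak, which served only to describe or rank peaks within a list. The combination of the 2 samples of a group and the number of reads are not stated in these sources. The depth is therefore unknown and shares carry counting error only.

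Regions on chromosomes 1 to 22 and X were kept. Overlap was 1 bp, gene ends were 1 kb around the annotated ends of 19821 protein-coding genes in a RefSeq table of GRCh38.p14, and intervals are 95% Wilson intervals (Python 3.11.15, pandas 2.3.3, scipy 1.17.1). The overlap steps were tested on simulated data. Genes were named by width: the widest regions of each class at gene ends, up to 4 members of a list in either list alone, genes with the most PA-only or WT-only regions and a fixed set. A few other members, and the promoters and loci shown, are named as well, and a few regions chosen by this rule are left unreported. The members and the 20 gene lists were chosen with earlier results of these data known. Alternatives covered the overlap, the region width, list length, contigs, merging, the gene window and the gene set. Exons and introns were not analysed here.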

Additional observations from a re-analysis of the deposited data

How the results depend on the processing

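The order of the classes was recomputed under other overlaps, widths, list lengths, windows and gene sets. With an overlap of 50% of the shorter peak, the shares at hypoxia ZHX2, normoxia ZHX2, hypoxia CTCF and normoxia CTCF were 19.5, 11.2, 20.7 and 20.4% for PA-only regions. In the same order, followed by H3K27ac in hypoxia and in normoxia, they were 18.4, 5.21, 20.5, 21.9, 56.0 and 52.6% for WT-only regions and 67.7, 32.3, 59.2, 60.5, 85.0 and 83.2% for shared regions. With 200 bp around the midpoint they were 20.3, 11.7, 21.8 and 22.7% for PA-only, 17.3, 4.59, 20.6, 22.0, 57.5 and 53.8% for WT-only, and 49.6, 18.3, 43.9, 43.9, 84.0 and 82.1% for shared regions. Both settings keep PA-only above WT-only at normoxia ZHX2 and shared above both in all 6 lists. At hypoxia ZHX2 the separation of PA-only from WT-only was not kept. With the 50% overlap the PA-only interval, 17.0 to 22.3%, included the WT-only share. With 200 bp the intervals met, at 17.8 to 23.2% for PA-only and 16.7 to 17.8% for WT-only. At normoxia CTCF the 50% overlap put PA-only below WT-only, while at 1 bp they were 27.1% and 26.4%.

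With the wider 50% of each list, PA-only fell to 7 regions, WT-only to 7636 and shared to 8003 in both lists. Shares were then 71.4 and 28.6% at hypoxia and normoxia ZHX2 and 28.6% at H3K27ac in either condition for PA-only, 54.6, 19.1, 48.7, 51.2, 81.6 and 79.5% for WT-only, and 86.7, 47.4, 78.4, 79.1, 96.0 and 95.3% for shared regions. With lists of equal length, the widest of each, PA-only and WT-only held 3057 regions each, and 397 genes had a PA and 887 a WT region alone. These settings drop one copy of an interval that both lists hold, so they reclassify regions by construction. Over all annotated genes 192 had a PA and 3051 a WT region alone. The other settings left the counts within 1.5 times of those reported. For some of them this was fixed in advance, since overlapping regions have identical ends and no regions touch within a list. An overlap of 50% of the shorter peak and the merging of touching peaks could not change the class counts. Matching by midpoints had little room to change them. Those settings are therefore no check of the counts.

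No paired analysis was possible because the groups share no replicate number and each has 1 list. Leaving out a replicate could not be run for the same reason. Read depth, peak scores and the making of the common intervals are not known, so a region missing from the PA list was not called there, which is not the same as unbound.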

Other observations

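Chains of closely spaced Flag regions, with gaps of at most 500 bp, also marked loci outside the gene lists. The longest held 16 regions on X (chrX:115857562-115883343), 0 PA-only, 2 WT-only and 14 shared, with no protein-coding gene. ERBB2, a receptor tyrosine kinase amplified in some breast cancers, carried 7 regions over 6609 bp, of which 0 were PA-only, 4 WT-only and 3 shared. FASN, the fatty acid synthase gene, carried 7 over 15627 bp, of which 0 were PA-only, 3 WT-only and 4 shared. PIEZO1, a mechanosensitive channel, had 0 PA-only, 4 WT-only and 3 shared, and HMGA1, a chromatin architectural protein, with its neighbour SMIM29, had 1, 3 and 2 in that order. These loci were chosen after their values were seen, by the number of regions in a chain.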
